A study of Mus musculus with 3 samples.

Results

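The interstitial collagens described here were 10 genes, Col1a1, Col1a2, Col3a1, Col5a1, Col5a2, Col6a1, Col6a2, Col6a3, Col12a1 and Col14a1, taken by gene symbol. The rule held no measured value, but the symbols were chosen with earlier results of these data known. The platform annotation gave 13 array features exactly 1 of these symbols, and all 13 had a log2 ratio on each of the 3 arrays. The features of a symbol were averaged, so the collagens made up 10 of the 19015 rows of the table (1 row for each symbol or unnamed feature). Each array compared metanephroi (the earliest form of the permanent kidney) taken at 11.5 days post coitum (dpc), with fetal kidney taken at 13.5 dpc. All tissue was microdissected from normal embryos of the outbred CD1 mouse strain, pooled over both sexes, and its RNA was amplified before labelling. No genotype or treatment distinguished the samples. The labels put the younger kidney in channel 1, and give the dye order as red/green for arrays 1 and 2 and green/red for array 3. A negative value is read here as a lower level at 11.5 dpc. That direction is likely but not settled. Array 3 correlated with arrays 1 and 2 at only 0.12 and -0.12 over all rows (Pearson). Arrays 1 and 2, which share a dye order, correlated at 0.27. By Spearman rank, array 3 had 0.13 and 0.001 with arrays 1 and 2, which had 0.36 with each other. These correlations are taken across genes, and genes are no independent replicates. For these reasons each value is also given by array. The deposited table holds ratios and no spot brightness, so levels of different genes could not be compared and expression of kidney markers could not be checked as a level.

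Interstitial collagens are made largely by mesenchymal and stromal cells and fill the space around epithelia and vessels. Collagens I, III and V form banded fibrils, in which type V chains help to set how thick a fibril becomes. Collagen VI assembles from different chains into beaded microfilaments near cell surfaces, and collagens XII and XIV lie on the surface of fibrils through their interrupted helices. In the developing kidney such collagens lie in the stroma between the branching ureteric bud and the forming nephrons, and they are best known in the adult organ for piling up in fibrosis.

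The collagen chains lay mostly lower at 11.5 than at 13.5 dpc in the ratios as deposited, with Col6a1, Col5a2 and Col5a1 lowest by mean. With array 3 turned, the lowest were Col5a1 (-0.52), Col6a1 (-0.47), Col6a3 (-0.44) and Col5a2 (-0.44). The mean log2 ratio was below 0 for 9 of the 10 genes, from -1.34 for Col6a1 to -0.079 for Col14a1, and it was 0.063 for Col3a1. The median over the 10 genes was -0.40, beside -0.0084 over all rows. Of the 10 genes, 6 were negative on all 3 arrays, against 18.5% of all rows, and 0 were positive on all 3, against 16.8%. The 6 were Col1a1, Col5a1, Col5a2, Col6a1, Col12a1 and Col6a3, whose value averages 3 features, 1 of them positive on all arrays. With each array centred on its median, 8 were negative on all arrays (17.9% of rows), and with array 3 turned 0 were (10.3%). None of the collagens passed limma's test at an adjusted p of 0.05 (0 of 10, with 0.0% of all rows passing), and their adjusted p lay between 0.326 and 0.898. At an unadjusted limma p under 0.05, 4 were lower (Col6a1, Col5a2, Col5a1 and Col1a1), against 5.07% of rows. The labels do not state whether each array had its own RNA extract, so these p-values measure only the spread between arrays, which may be technical. In tissue of this kind, fewer collagen-making cells and less collagen RNA per cell cannot be told apart.

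**Figure D1:**
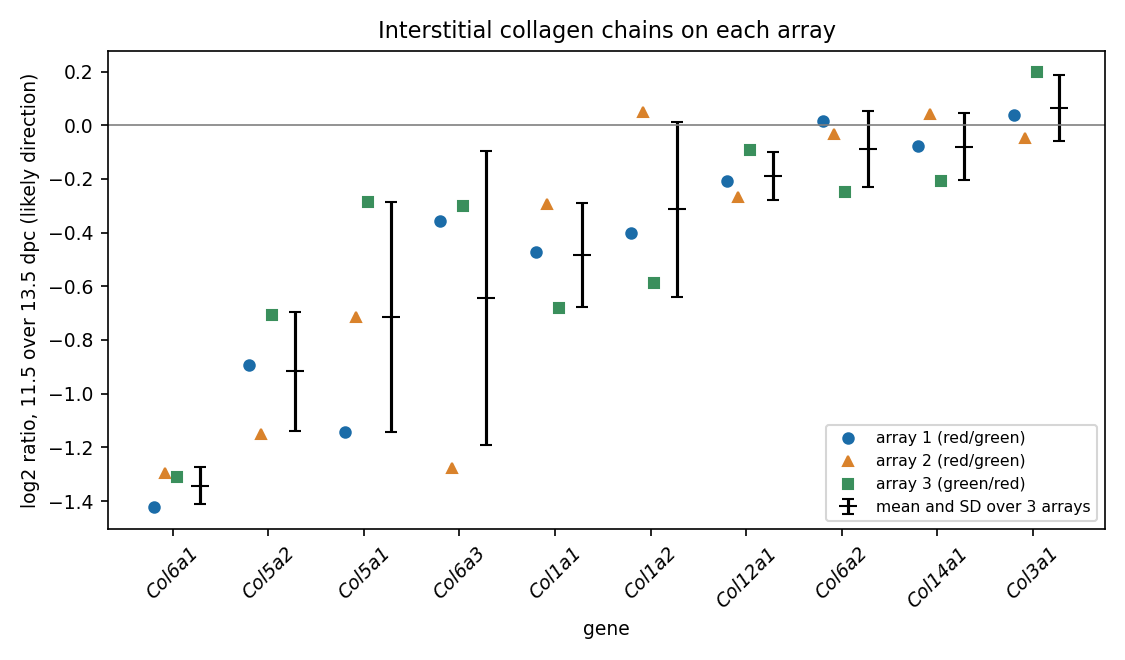
Log2 ratio of each interstitial collagen gene (y axis; 11.5 over 13.5 dpc, the likely direction) on each of 3 arrays, with genes on the x axis in order of their mean; black marks are the mean and SD. Col6a1 sits near -1.3 to -1.4 on every array, the collagen V chains lie below 0 on every array, and Col6a2, Col14a1 and Col3a1 straddle 0.

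The features stood close together in the oligonucleotide library, and features around them also had negative ratios. Of the 13 collagen features, 11 had library numbers from 5042 to 5271. Among the 362 other features within 100 numbers of that block, all collagen chains left out, the median log2 ratios were -0.33, -0.21 and -0.063 on arrays 1, 2 and 3, and 34.0% were negative on all arrays. As an alternative, a running median over 201 features was subtracted from each ratio. Unlike the medians above, it includes the collagen features, so it can also take off part of the collagens' own ratios. The median of the 10 genes was then -0.26, and 5 stayed negative on all arrays (17.7% of rows): Col1a1, Col5a1, Col5a2, Col6a1 and Col6a3. Whether the neighbours share a function with the collagens or a place in printing was not tested.

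Among the fibril-forming chains, Col5a2 and Col5a1 had lower means than Col1a1 and Col1a2, although Col5a1 lay above both on array 3, and Col3a1 had values around 0. Col5a2, which encodes the second chain of the common collagen V molecule, had log2 ratios of -0.89, -1.15 and -0.71 on arrays 1, 2 and 3. All of them lie well below 0, in both dye orders. Its mean of -0.92 ± 0.22 (SD, n = 3 arrays) is 1.89-fold lower at 11.5 dpc (limma adjusted p = 0.410). Col5a1, which encodes the main chain of collagen V, had -1.14, -0.71 and -0.29. Its values were the most negative on array 1 and the nearest to 0 on array 3, the array with the other dye order, and the mean was -0.71 ± 0.43 (adjusted p = 0.534). Because the arrays differ in spread, each value was also placed among all rows of its array. For Col5a2, 5.19, 5.54 and 12.5% of rows lay lower on arrays 1, 2 and 3, and for Col5a1 2.52, 9.42 and 33.7%. Col5a1 thus stood near the low end of array 1 and inside the bulk of array 3.

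Col1a1, which encodes the chain present in 2 copies in each collagen I molecule, had -0.47, -0.29 and -0.68, below 0 on every array. Its mean of -0.48 ± 0.19 is 1.40-fold lower at 11.5 dpc (adjusted p = 0.539), and it was -0.028 with array 3 turned. Col1a2, its partner chain, had -0.40, 0.048 and -0.59, so array 2 lay just above 0 and the other two below, and the mean was -0.31 ± 0.33 (adjusted p = 0.640). Col3a1, which encodes the only chain of collagen III and is typical of pliable embryonic matrix, had 0.040, -0.047 and 0.20, on both sides of 0. Its mean of 0.063 ± 0.12 (adjusted p = 0.898) was the highest of the 10. On array 3 73.4% of rows lay below Col3a1, while 13.3% lay below Col1a1. Col3a1 and Col5a2 are next to each other on chromosome 1, with 0 protein-coding genes between them in the RefSeq annotation of GRCm38.p6, and Col5a2 lay below Col3a1 on every array, with no overlap between their values.

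Among the collagen VI genes described here, Col6a1 lay far below Col6a2 on every array, and Col6a3 differed between its features. Col6a1 had -1.42, -1.30 and -1.31 on arrays 1, 2 and 3, the closest agreement between arrays of any of the 10 genes. Its mean of -1.34 ± 0.069 is 2.54-fold lower at 11.5 dpc (limma SE 0.15, adjusted p = 0.326). It was the only one of the 10 at least 2-fold lower on every array, a pattern met by 0.436% of all rows. After the running median was subtracted it had -1.02, -0.96 and -1.15, so array 2 did not reach 2-fold. Of all rows, 1.14, 4.68 and 3.27% lay below it on the 3 arrays. Col6a2, the partner chain of Col6a1, had 0.014, -0.032 and -0.25, around 0 on every array, with a mean of -0.089 ± 0.14 (adjusted p = 0.850). Col6a1 and Col6a2 are neighbours on chromosome 10, with 0 protein-coding genes between them.

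The windows around the annotated start of 3 genes are shown because Col6a1 and Col3a1 had the lowest and the highest ratio of the 10 and Col6a2 is the neighbour of Col6a1. Each runs from 250 bases before the start to 50 after it (RefSeq, GRCm38.p6), on the gene's strand, and capitals mark motif matches on either strand. The motifs searched were the letters CCAAT, which many promoters carry upstream of the start. They also included TATAAA, the core of the element that many tissue-specific promoters use. The last was GGGCGG, which zinc finger proteins of the Sp family bind.
Col6a1, chr10:76725995-76726294, minus strand: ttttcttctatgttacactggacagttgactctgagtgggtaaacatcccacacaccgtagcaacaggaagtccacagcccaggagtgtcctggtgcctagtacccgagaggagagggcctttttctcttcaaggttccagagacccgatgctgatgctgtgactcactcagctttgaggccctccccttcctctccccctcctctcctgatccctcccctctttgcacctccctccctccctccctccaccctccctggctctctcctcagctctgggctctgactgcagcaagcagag
Col6a2, chr10:76623355-76623654, minus strand: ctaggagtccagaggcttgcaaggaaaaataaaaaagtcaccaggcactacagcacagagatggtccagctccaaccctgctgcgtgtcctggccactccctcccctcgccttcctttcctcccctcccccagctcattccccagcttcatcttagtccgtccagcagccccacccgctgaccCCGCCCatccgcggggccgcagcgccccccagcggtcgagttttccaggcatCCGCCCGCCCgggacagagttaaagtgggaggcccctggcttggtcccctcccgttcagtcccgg
Col3a1, chr1:45311288-45311587, plus strand: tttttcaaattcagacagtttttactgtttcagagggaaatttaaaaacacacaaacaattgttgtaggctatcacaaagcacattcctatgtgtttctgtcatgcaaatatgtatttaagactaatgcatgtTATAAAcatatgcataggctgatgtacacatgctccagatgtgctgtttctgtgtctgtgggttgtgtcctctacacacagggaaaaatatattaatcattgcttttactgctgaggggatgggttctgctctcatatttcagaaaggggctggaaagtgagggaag

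The Col6a1 window holds 0 matches to any of the 3 motifs, which says only that these letters are not in this window. The Col6a2 window holds 3 matches to GGGCGG, all read on the opposite strand, and those beginning 15 and 11 bases before the start overlap by their end letters. A further annotated start of Col6a2 has 1 such match. The Col3a1 window holds 1 match to TATAAA, beginning 117 bases before the start. Of 32851 windows of this length, 37.4% hold CCAAT, 13.6% TATAAA and 35.7% GGGCGG, so each motif is widespread. The Col3a1 window is 37.7% G and C, beside 57.3% for Col6a1, 64.3% for Col6a2 and a median of 52.7% over all windows. Of the 10 genes, 6 had a window in the table; Col1a2 (2 matches each to CCAAT and GGGCGG), Col5a1 (2 to GGGCGG) and Col6a3 (0) were the others, and Col1a1, Col5a2, Col12a1 and Col14a1 were not matched.

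Col6a3, which encodes the largest of these collagen VI chains, was measured by 3 features that went different ways. Feature 5042, named by its library number, had -1.15, -1.41 and -1.60 on arrays 1, 2 and 3. Feature 5072 had 0.70, 0.70 and 0.76. These features do not overlap on any array: the first lies 2.62-fold lower at 11.5 dpc and the second 1.64-fold higher, each with 1 sign in both dye orders (limma on single features, unadjusted p = 0.00123 and 0.00768, adjusted p = 0.345 and 0.436). Feature 5046 had -0.61, -3.12 and -0.051, with array 2 far below the others. The gene's average of -0.36, -1.28 and -0.30 (mean -0.64 ± 0.55, adjusted p = 0.553) therefore mixes opposite signals, and it is -0.33 without array 2. A gene with 1 feature at or below -0.5 and another at or above 0.5 on all arrays was rare: of 971 genes with several features, 3 met this, Col6a3, Igh-VS107 and Taf1, named here because of this count. The span between the highest and lowest feature mean of Col6a3 was 2.10 log2 units, beside a median span of 0.36, and 98.9% of these genes had a smaller one. Which transcripts of Col6a3 each oligonucleotide matches was not tested.

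**Figure D2:**
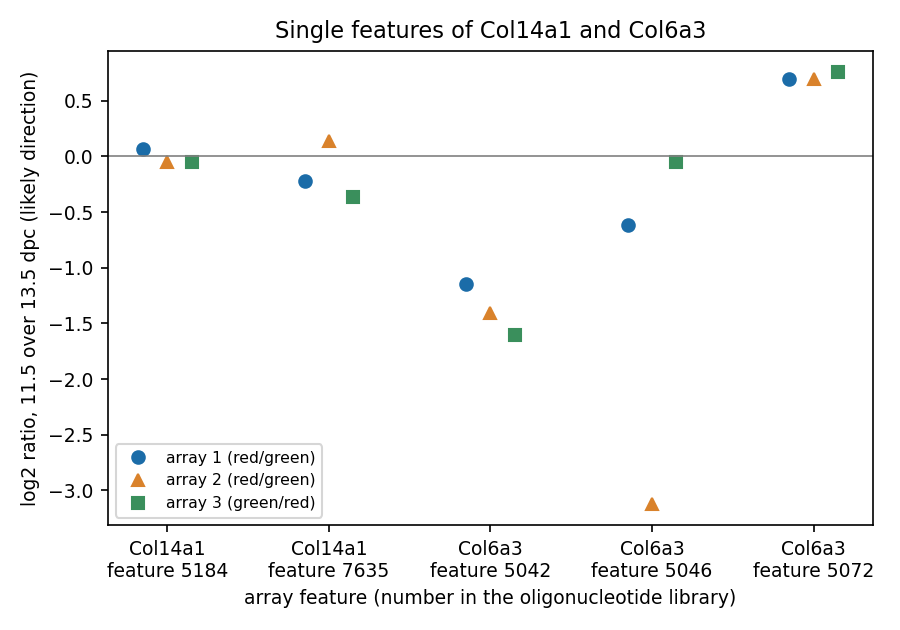
Log2 ratio (y axis; 11.5 over 13.5 dpc, the likely direction) of each single array feature of Col14a1 and Col6a3, the collagens with more than 1 feature, on 3 arrays. Col6a3 feature 5042 lies between -1.60 and -1.15 and feature 5072 between 0.70 and 0.76, while feature 5046 reaches -3.12 on array 2.

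Chains that build the same collagen were compared within each array, where both values share the hybridisation. The Col6a1 ratio was below that of Col6a2 by 1.44, 1.26 and 1.06 log2 units on arrays 1, 2 and 3, with 1 sign in both dye orders and the smallest difference on array 3. The mean was -1.25 ± 0.19 (SD, n = 3 arrays), and -0.55 with array 3 turned. Col6a1 minus Col6a3 was -1.07, -0.020 and -1.01, near 0 on array 2 where feature 5046 is extreme. Col6a2 minus Col6a3 was 0.37, 1.24 and 0.050, above 0 on every array but spread widely. Both of these differences rest on the average of the 3 Col6a3 features. Taken singly, Col6a2 lay above feature 5042 and below feature 5072 on every array. Col6a1 lay below feature 5072 on every array, but below feature 5042 only on array 1. The sign of a difference from Col6a3 therefore depends on the feature used. Col1a1 minus Col1a2 was -0.072, -0.34 and -0.092, a small difference of 1 sign whose mean is -0.17 ± 0.15. Col5a1 minus Col5a2 was -0.25, 0.44 and 0.42, with both signs and a mean of 0.20 ± 0.39. In an exact two-sided permutation test over sign flips, 4 of the 5 pairs had p = 0.25 and Col5a1 with Col5a2 had p = 0.5 (adjusted over 5 pairs, 0.312 and 0.5). This permutation test cannot go below 0.25 with 3 arrays. With a running median subtracted, Col1a1 minus Col1a2 was 0.0031.

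**Figure D3:**
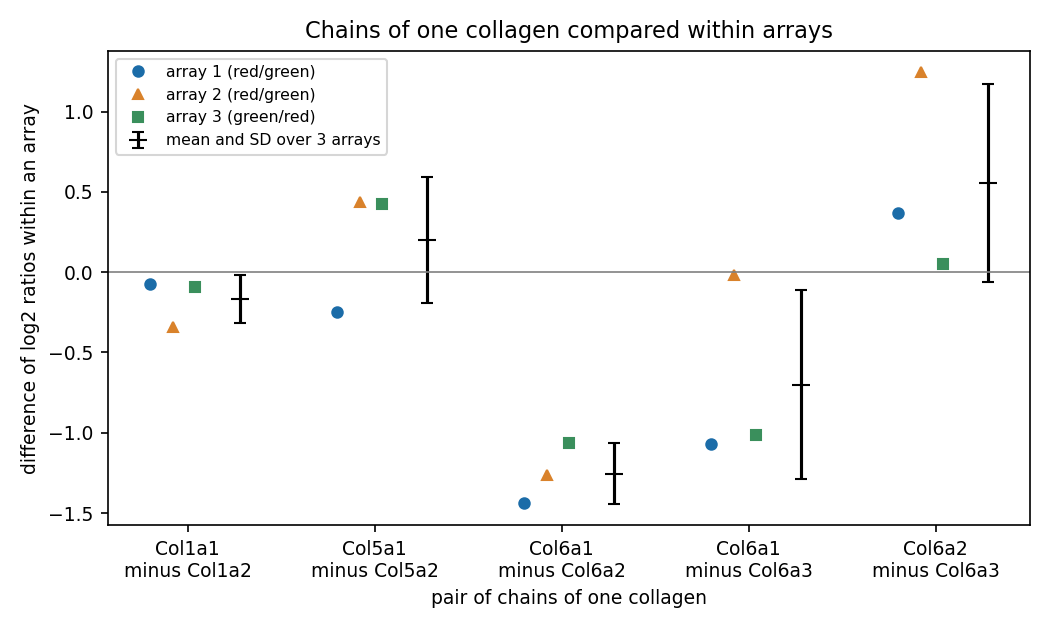
Difference between the log2 ratios of 2 chains of the same collagen (y axis, log2 units) on each of 3 arrays, for 5 pairs on the x axis; black marks are the mean and SD. Col6a1 minus Col6a2 lies between -1.44 and -1.06 on every array, Col1a1 minus Col1a2 lies near 0, and Col5a1 minus Col5a2 has both signs. Col6a3 enters as the average of 3 features that went different ways.

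Both fibril-associated collagens had ratios close to 0. Col12a1, whose product links fibrils to other matrix in tissue under load, had -0.21, -0.27 and -0.094, below 0 on each array, with a mean of -0.19 ± 0.088 (adjusted p = 0.686). It was 0.076 after the running median was subtracted. Col14a1, whose product lies along collagen I fibrils, had -0.076, 0.044 and -0.21, on both sides of 0, with a mean of -0.079 ± 0.12 (adjusted p = 0.867). Its 2 features had means of -0.012 and -0.15 and overlapped. From lowest to highest mean the order was Col6a1, Col5a2, Col5a1, Col6a3, Col1a1, Col1a2, Col12a1, Col6a2, Col14a1 and Col3a1, an order that holds for the ratios as deposited and not with array 3 turned. The values of each gene overlap those of the next in this order over the 3 arrays, except that Col6a1 lies below all values of Col5a2.

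The genes whose 3 log2 ratios lay nearest to those of Col6a1, by Euclidean distance among 14432 other named genes, were F3, Scnn1b, Mfap5, Bgn and Fam20c, at 0.13 to 0.25 log2 units. F3 encodes tissue factor, which starts blood clotting, and had -1.36, -1.21 and -1.39. Scnn1b encodes a subunit of the epithelial sodium channel, Mfap5 a protein of microfibrils, and Bgn biglycan, a small proteoglycan that binds collagen. The genes nearest to the mean profile of the 10 were 4930404N11Rik, 1700012D14Rik, Tmed7, Cdk18 and Aspm, at 0.064 to 0.099. With 3 arrays, such closeness is a description only.

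Other collagen genes also had mostly negative ratios. The 28 other collagen chains with a row had a median of -0.34, with 15 negative and 3 positive on all arrays, 9 lower at an unadjusted limma p under 0.05 and 0 passing the adjusted threshold. Over all rows 18.5% were negative and 16.8% positive on all arrays and 5.07% lower at that p, the shares against which the counts of these and the following lists are to be read. The lowest was Col4a3 of the glomerular basement membrane (-1.57 ± 0.11), and the highest was Col9a1 of cartilage (1.56 ± 0.42). Among other fibril-forming collagens, 3 of 6 were negative on all arrays. Col5a3, the third collagen V chain, had -0.39, -0.39 and -0.46, close to Col1a1, and Col27a1 had -0.28 ± 0.057. Col2a1, the main cartilage collagen, had 0.33, 0.43 and 0.54 and was the 1 positive on all arrays. Among other fibril-associated collagens, Col16a1 had -0.70 ± 0.15, Col9a2 -0.75 ± 0.78 and Col22a1 0.22 ± 0.11. Of 12 network, anchoring and beaded collagens 7 were negative on all arrays and 0 positive, with a median of -0.52. Col10a1 had -0.73 ± 0.017, Col8a2 0.16 ± 0.62 and Col4a4 0.084 ± 0.15. Of 5 transmembrane collagens and multiplexins 3 were negative on all arrays, among them Col15a1 (-1.44 ± 0.40), found at basement membranes, and Col13a1 (-0.65 ± 0.25).

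Genes that fold and modify collagen chains in the cell had mostly negative ratios, and receptor genes had ratios on both sides of 0. Of 16 measured genes of folding and modification, 9 were negative on all arrays and 0 positive, 6 were lower at an unadjusted limma p under 0.05 and 0 passed the adjusted threshold, with a median of -0.40. Sparc, a collagen-binding protein that acts in and outside the cell, had -1.17, -1.13 and -1.56. P3h1, which hydroxylates single prolines of collagen chains, had -0.57, -0.77 and -0.93 (mean -0.76 ± 0.18), and its partner Crtap had -0.52 ± 0.14. Ppib, the third protein of that complex, had 0.20 ± 0.33, and Creb3l1, a transcription factor of secretory cells, had 0.40 ± 0.44. Serpinh1, the collagen chaperone, had -0.36, 0.075 and -0.48, an order of arrays like that of Col1a2. P3h1 and Crtap were thus below 0 on every array, and Ppib was not. Fkbp10, Fkbp14, P4ha3, P3h2, Colgalt1 and Colgalt2 of this list had no row.

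Of 11 genes that trim procollagen or cross-link fibrils, 5 were negative on all arrays and 0 positive, and the median was -0.12 (-0.27 without array 1 and -0.29 without array 2). Tll1 and Bmp1, which encode related proteinases, had -0.70 ± 0.31 and -0.59 ± 0.47. The cross-linking enzyme gene Lox had -0.18, -0.59 and -0.40, below 0 on each array. Loxl3 and Tll2, the pair with the smallest p in the other direction, had 0.11 ± 0.51 and 0.0016 ± 0.37. Of 15 proteins that bind fibrils and shape them, 9 were negative on all arrays and 0 positive, and the median was -0.35 (-0.53 without array 1). Bgn had -1.25 ± 0.066 and Kera, encoding another small proteoglycan, -1.06 ± 0.10. Aebp1 was the 1 gene of that list with a mean above 0 (0.0099 ± 0.90).

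Collagen receptors had a median of -0.045 over 8 genes, with 1 negative on all arrays and 0 positive, and the median was -0.49 without array 3 and -0.38 with array 3 turned. Ddr1, a receptor kinase that collagen activates, had -0.69 ± 0.59, and Itga2, an integrin chain that binds collagen, had -0.55 ± 0.83. Itga1, another such chain, had 0.085 ± 0.17. Antxr2, whose product binds collagen VI and basement membrane proteins, had -1.31, -0.044 and 3.85, and the related Antxr1 0.38, -2.40 and 3.87, both spread too widely over the arrays to give a direction. Among 11 collagen-degrading proteinases and inhibitors the median was -0.058 (0.00063 without array 1 and 0.091 without array 3), with 1 negative (Mmp14, -0.22 ± 0.19) and 2 positive on all arrays (Timp4, 0.26 ± 0.10, and Fap, 0.17 ± 0.13). Mmp9 had -0.45 ± 0.94. Of 15 genes of TGF-beta signalling, a pathway that raises collagen production in many cells, 4 were negative on all arrays and 0 positive, and the median was -0.12 (-0.21 without array 2 and 0.024 without array 3). Tgfb1 had -0.97, -0.81 and -0.33 and Ltbp3, a carrier of the latent ligand, -0.56 ± 0.15. Tgfb2 had 0.47 ± 0.47 and Smad2 0.085 ± 0.21. In each of these lists 0 genes passed limma's adjusted threshold.

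**Figure D4:**
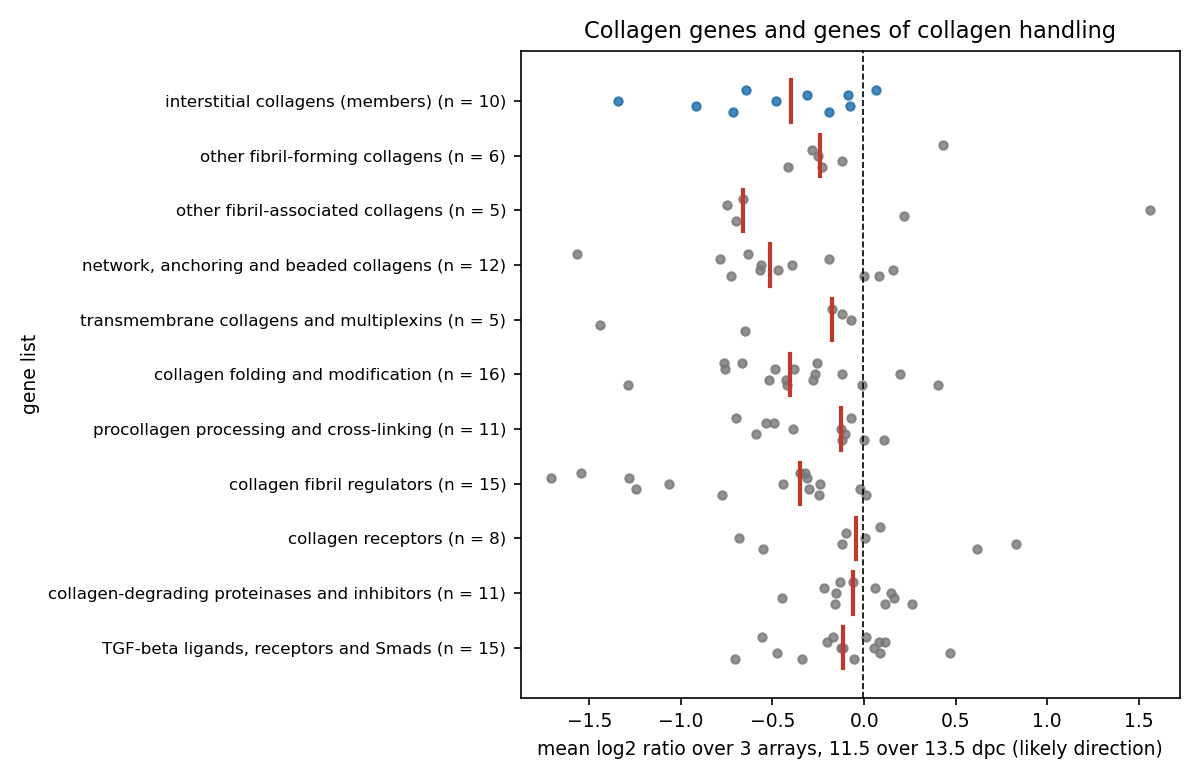
Mean log2 ratio over 3 arrays (x axis; 11.5 over 13.5 dpc, the likely direction) of every measured gene of each collagen and collagen-handling list (rows, with n); blue points are the interstitial collagens, red bars list medians and the dashed line the median of all rows. Medians run from -0.66 for other fibril-associated collagens to -0.045 for receptors, but without array 1 the first is -0.21 and without array 3 they are -0.34 and -0.49.

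Markers of stromal cells, taken as a list, had a different balance from the collagens, but the list was divided. Of 15 stroma and fibroblast markers, 8 were positive on all arrays and 4 negative, with a median of 0.27 (0.24, 0.22 and 0.24 on arrays 1, 2 and 3). The 8 were Foxd1, Pdgfrb, Meis1, Twist1, Twist2, Nr2f1, Ntn1 and Tbx18, and the 4 were Pdgfra, Tcf21, Thy1 and Vim. The median is the mean of Prrx1, which had -1.105, 1.65 and 0.27 on the 3 arrays. Foxd1, the transcription factor of renal stromal progenitors, had 0.73, 1.07 and 0.35, and Pdgfra, a receptor of fibroblasts, had -0.15 ± 0.12. Endothelial markers had a median of -0.39, with 9 of 12 negative on all arrays, and erythroid markers one of 1.17, with 9 of 11 positive. Mesothelial and gonadal markers had a median of -0.51 (4 of 6 negative), smooth muscle and pericyte markers -0.13 (3 of 9 negative, 3 positive), and cartilage and bone markers -0.13 (4 of 9 negative, 1 positive). For nephron progenitor and ureteric bud markers the median was -0.21 (8 of 15 negative, 3 positive), for neuron, glia and neural crest markers -0.29 (5 of 8 negative, 1 positive) and for macrophage and leukocyte markers 0.089 (1 of 10 negative, 2 positive). In each of these marker lists 0 genes passed limma's adjusted threshold, and the part of such cells in the collagen ratios was not tested.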

How the data were processed

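The deposited log2 ratios of the 3 two-channel Compugen oligonucleotide arrays were used as the authors gave them. Raising 2 to the value gave a whole multiple of 0.001 for 100.0% of the values checked (within 0.02 of a step), which sets the base. The most extreme values at both ends were left out of that check. Per the labels, ImaGene 5.5 measured the spots. The labels describe 2 normalisations, print-tip loess with between-array adjustment and a Lowess curve, without saying which made these values. Spot brightness was not analysed here, so dim and saturated spots could not be told from others.

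Of 22702 features, 883 controls or blanks were left out, and 20386 gene features had a value on all arrays. Features of 1 symbol were averaged to 19015 rows. Symbols were checked by Entrez identifier, with 15970 matching and 0 changed. Mean log2 ratios were tested against 0 over all rows with limma 3.58.1 in R 4.3.3 (two-sided, Benjamini-Hochberg); the procedure was tested on simulated data. Array 3 was kept as deposited, to be turned only if it correlated negatively with both others. Alternatives were dye order, orientation, centring, scaling, quantile normalisation, array weights and single features. Further ones were a test without a variance prior, library position, features with a value on any array and leaving out each array. The gene symbols and lists were chosen with earlier results of these data known. Of each collagen and pathway list, the 2 genes with the smallest limma p in each direction were named; other genes were named after their values were seen.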

Additional observations from a re-analysis of the deposited data

How the results depend on the processing

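Subtracting the running median along the library was an alternative added after seeing the data. By limma's adjusted p, 0 rows and 0 collagens passed under each alternative. Rows at an unadjusted p under 0.05 numbered 1757, and 736 to 2346 without 1 array, 2669 with a dye term. The array count limits all p-values, and without array 3 age and dye cannot be told apart. Of 115 refits of single collagens 106 kept their sign, but many of these refits could not reverse. Every collagen feature had a value on all arrays, so admitting features with a value on any array changed no mean. Leaving out 1 array cannot turn the mean of a gene that is negative on all arrays. Col1a1, Col5a1, Col5a2 and Col6a1 kept theirs in all, though Col1a1 was only -0.028 with array 3 turned. With array 3 turned, Col1a2 was 0.079, Col3a1 -0.068, Col6a2 0.077, Col14a1 0.058 and Col5a1 minus Col5a2 -0.079; Col6a1 was -0.47. With array 3 turned the median of the 10 genes was -0.097, and 0 were negative or at least 2-fold lower on all arrays. After the running median, Col6a2 was 0.19, Col12a1 0.076, Col14a1 0.077, Col1a1 minus Col1a2 0.0031, the median -0.26, and 0 were 2-fold lower. Without array 3, Col3a1 was -0.0035 (0.12 without array 2); the median ran from -0.41 to -0.31 without 1 array. It was -0.46 with a dye term and -0.31 over single features, of which 2 were 2-fold lower (Col6a1 and Col6a3 feature 5042); feature 5072 of Col6a3 was 0.72. At 1.5-fold and 3-fold, 2 and 0 genes were lower on all arrays. For fold counts, the share of all rows was taken only at 2-fold in the ratios as deposited (0.436%). The other fold counts here have no such share beside them and are descriptions only. List medians changed sign with array 3 turned for other fibril-associated collagens (0.046), processing (0.087), degradation (0.045) and TGF-beta genes (0.14). So did those of receptors (0.068) and degradation (0.077) after the running median, of degradation without array 1 (0.00063) or 3 (0.091; -0.098 without array 2) and of TGF-beta without array 3 (0.024; -0.21 without array 2). The causes were not tested.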
